A study of Homo sapiens with 6 samples.

Results

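The 10 genes described here are the transcriptional brakes and readouts of the RAS-ERK (MAPK) pathway, namely the phosphatase genes DUSP4, DUSP5 and DUSP6, the inhibitor genes SPRY1, SPRY2, SPRY4 and SPRED1, the transcription factor genes ETV4 and ETV5, and PHLDA1. They were chosen by name and role, with earlier results of these data known although no measured value entered the rule, and all 10 are among the 23228 genes of the count tables. RNA was sequenced from Hep3B, an established human hepatocellular carcinoma (HCC) cell line grown in RPMI medium. There were 3 control libraries, from cells that received a non-targeting shRNA by lentivirus, and 3 libraries labelled PELP1-KD, from cells that received an shRNA against PELP1 and were kept as pooled, puromycin-selected clones. The titles of the latter name the first PELP1 shRNA, whereas the treatment text names both shRNAs of the study, so which one was used is uncertain. The labels do not say whether replicates came from separate cultures, and the p values thus measure the spread between libraries, which may be technical.

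In this pathway, a growth factor receptor recruits GRB2 and SOS, which load RAS with GTP, and RAS then starts the kinase relay from RAF to MEK to ERK. Active ERK turns on a small group of genes that limit its own activity, so their mRNAs are widely read as a gauge of ERK output. DUSP proteins remove phosphate from ERK, and SPRY and SPRED proteins act higher up, at RAS and RAF. ETV4 and ETV5 are ETS-family transcription factors that are induced with them. Only mRNA was measured in these libraries, so neither ERK phosphorylation nor protein was available, and fewer cells expressing a gene cannot be told apart from less RNA per cell.

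Between 26758180 and 34456393 reads fell on genes in a library. PELP1 itself had 4893, 4914 and 5102 normalized reads (reads divided by the relative, TMM-scaled library size) in control, against 4421, 4825 and 4840.2 for PELP1-KD. The latter was 94.5% of the control level (log2 fold change −0.08, standard error 0.04, adjusted p = 0.101 from edgeR). It was called lower with the replicate number as a block (adjusted p = 0.0106), without PELP1-KD replicate 3 (adjusted p = 0.018) and without replicate 3 of both groups (adjusted p = 0.0244). The study reported reduced PELP1 protein by Western blot in its knockdown Huh7 and Hep3B cells, and protein was not measured in these libraries. Since PELP1 RNA lay close to control, the groups are called by their labels, and higher or lower refers to those labels. The 6 hepatocyte genes examined (ALB, AFP, APOA1, APOB, TTR and HNF4A) were all expressed, with a summed level of 8440 to 8680 RPKM (reads scaled by exon length and library size) in control and 7810 to 8000 RPKM in the other libraries. Within that sum ALB (65.4% of control), TTR (65.6%), APOB (72.9%) and APOA1 (91.4%) fell and AFP (154%) and HNF4A (118%) rose, and their part in the results below was not tested. Of 6 markers of leukocytes, endothelium or red cells, HBB had 0 reads in every library, and PTPRC, CD3E and VWF had 0 to 5. The summed level of the 6 was 22.9 to 25.5 RPKM in control and 32.2 to 34.6 RPKM in the other libraries. Nearly all of that sum was CD68, at 23.6 RPKM in control and 32.9 RPKM in the others (log2 fold change 0.48). PECAM1, the only other marker tested, was at 0.477 and 0.447 RPKM and was not called (−0.09, adjusted p = 0.656 from edgeR). The sum thus describes 1 gene and not these cell types. The part of these markers was likewise not tested.

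The feedback genes did not move as one group. Lower levels under the PELP1-KD label were called for 5 of the 10 (DUSP6, SPRED1, SPRY1, ETV5 and SPRY4), higher levels for 4 (DUSP4, DUSP5, SPRY2 and ETV4), and PHLDA1 was not called, at an adjusted p below 0.05 in edgeR's quasi-likelihood test over 14537 genes. Among all tested genes, 53.6% were called, 26.8% lower and 26.8% higher. No member changed 2-fold, and 7.65% of all tested genes were called with at least that change. So low a share does not set the 10 members apart from other genes. The members' log2 fold changes ran from −0.67 to 0.49 with a median of −0.12, beside a median of 0.0044 over all tested genes. Their standard errors, 0.04 to 0.07, were near the median of 0.063 over all genes. The groups did not overlap for 9 of the 10 genes, beside 58.8% of tested genes. In 6 of these every PELP1-KD value was below control (29.3% of tested genes) and in 3 above it (29.5%). Only DUSP6, SPRED1 and DUSP4 lay outside the interquartile range of all tested genes, which spanned log2 fold changes from −0.19 to 0.20.

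**Figure D1:**
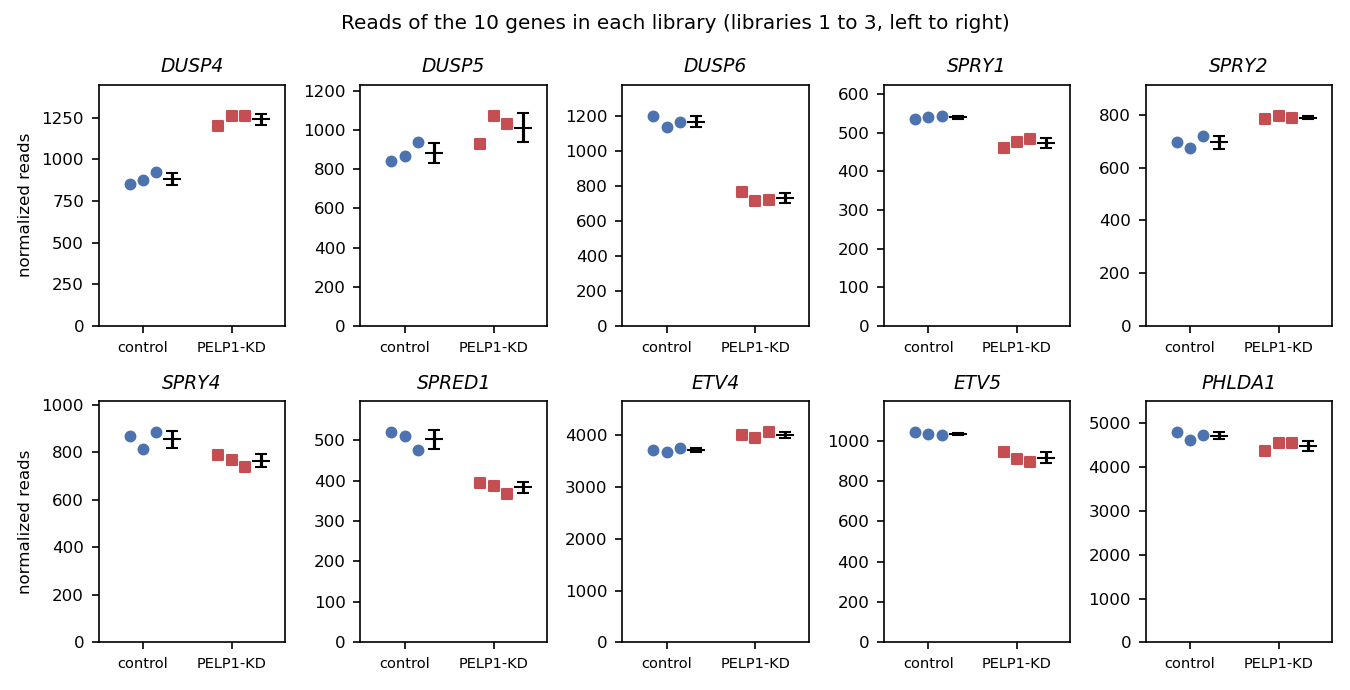
Normalized reads (vertical axes, from 0) of the 10 genes in the 3 control libraries (blue circles) and the 3 libraries labelled PELP1-KD (red squares), with the mean and SD of each group in black. DUSP6 falls from between 1137 and 1199 to between 712 and 765, DUSP4 rises from between 853 and 921 to between 1199.9 and 1260.2, and only the groups of DUSP5 overlap.

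The widest contrast was found among the ERK phosphatases. DUSP6, a cytoplasmic phosphatase selective for ERK, spans positions 89741837 to 89746296 of chromosome 12 (hg19, as for all gene positions here). Control libraries held 1199, 1137 and 1167 of its normalized reads, the PELP1-KD libraries 765, 712 and 720.1. Every control library was thus well above every other library. The mean of DUSP6 fell to 62.7% of control, from 1167 ± 31.2 to 732 ± 28.5 (SD, n = 3 each), a log2 change of −0.67 with a 95% interval of −0.79 to −0.56 (adjusted p = 3e-09 from edgeR), and 13.3% of tested genes had a change at least as large.

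DUSP4, on chromosome 8 from 29190579 to 29208267, encodes a nuclear phosphatase of ERK and other MAP kinases, and it went the other way. Its normalized reads numbered 853, 877 and 921 in control, against 1199.9, 1260.2 and 1258 for PELP1-KD. The groups lay apart, with the spread within each far smaller than the gap between them. DUSP4 rose to 140.3% of control, from 884 ± 34.96 to 1239.5 ± 34.3 (SD, n = 3 each), or by 0.49 on the log2 scale (95% interval 0.38 to 0.60, adjusted p = 1.77e-07 from edgeR). DUSP5, on chromosome 10 from 112257625 to 112271302, encodes an ERK phosphatase of the nucleus. It had 842, 870.3 and 938 normalized reads in control and 931, 1072 and 1034 in the other libraries, so control replicate 3 lay above PELP1-KD replicate 1. The mean rose to 114.6% of control, with a log2 fold change of 0.20 (95% interval 0.07 to 0.32, adjusted p = 0.012 from edgeR). The call was lost without control replicate 1 (0.16, adjusted p = 0.0677) or PELP1-KD replicate 2 (0.15, adjusted p = 0.0832).

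Since DUSP4 and DUSP6 moved in opposite directions, their balance within a library was computed from levels per exon length. The ratio of DUSP4 to DUSP6 RPKM was 0.273, 0.296 and 0.303 in control, against 0.603, 0.680 and 0.671 for PELP1-KD. As both genes already lay apart in opposite directions, the groups could not overlap, and the log2 ratio was higher by 1.16. In control, DUSP6 RNA was the more abundant of the pair per length, and under the PELP1-KD label it remained so by a smaller margin.

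**Figure D2:**
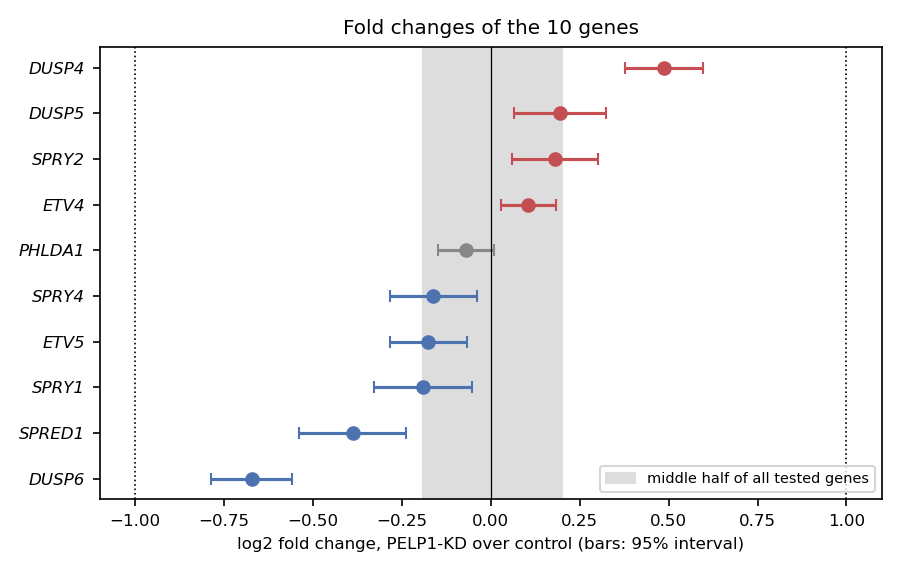
Log2 fold changes of the 10 genes, PELP1-KD over control, with 95% intervals (horizontal axis). Blue marks genes called lower, red genes called higher and grey the gene not called, the shade spans the interquartile range of all tested genes (−0.19 to 0.20), and the dotted lines mark a 2-fold change, which no gene reached.

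Among the 4 Sprouty and SPRED genes of the group, SPRED1 had the largest fall. SPRED1 encodes a membrane protein that brings the RAS inactivator neurofibromin to RAS, and its gene lies on chromosome 15 from 38545052 to 38649450. Its normalized reads were 519, 509.9 and 476 in control, against 395, 387 and 368 for PELP1-KD. All of the latter were below all of the former. SPRED1 changed by −0.39 on the log2 scale (95% interval −0.54 to −0.24, adjusted p = 0.000134 from edgeR), and the mean fell to 76.4% of control. Its relative SPRED2 also fell, from 17.2 RPKM in control (log2 fold change −0.26, adjusted p = 2.59e-05 from edgeR), whereas SPRED1 was at 2.19 RPKM in control, the lowest level of the 10 genes.

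The Sprouty genes encode inhibitors that interfere with RAS activation by receptor tyrosine kinases. They did not share a direction, and their changes were small. Changes at least as large were found in 51% of tested genes for SPRY1, 52.8% for SPRY2 and 56.9% for SPRY4. SPRY1, on chromosome 4 from 124317956 to 124324909, had 535, 542 and 544 normalized reads in control, against 459.7, 476 and 484 for PELP1-KD. SPRY4, on chromosome 5 from 141689992 to 141704620, had 867, 813 and 882 in control and 789, 767 and 736 in the others. For both genes the groups lay close together without overlapping. SPRY1 fell to 87.6% of control (log2 fold change −0.19, 95% interval −0.33 to −0.05, adjusted p = 0.0201 from edgeR), and SPRY4 fell to 89.5% (−0.16, 95% interval −0.28 to −0.04, adjusted p = 0.0253). SPRY2, on chromosome 13 from 80910112 to 80915086, had 696, 673 and 721 normalized reads in control, against 786, 796 and 788 for PELP1-KD. It thus rose, to 113.4% of control, with a log2 fold change of 0.18 (95% interval 0.06 to 0.30, adjusted p = 0.0121 from edgeR).

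Each of these 3 Sprouty calls was lost when some single libraries were left out. SPRY1 missed the threshold without control replicate 2 (adjusted p = 0.0531), control replicate 3 (adjusted p = 0.0513) or PELP1-KD replicate 1 (adjusted p = 0.0632). SPRY4 missed it without control replicate 1 (adjusted p = 0.0933), control replicate 3 (adjusted p = 0.104), PELP1-KD replicate 2 (adjusted p = 0.0641) or PELP1-KD replicate 3 (adjusted p = 0.0687), and SPRY2 without control replicate 2 (adjusted p = 0.0683), all from edgeR. Each gene kept its direction in all of these fits. As a description of the same values within libraries, the ratio of SPRY1 to SPRY2 RPKM was 0.620, 0.649 and 0.608 in control, against 0.471, 0.482 and 0.496 for PELP1-KD, and that of SPRY4 to SPRY2 was 0.527, 0.511 and 0.517 against 0.424, 0.407 and 0.395. The log2 ratio changed by −0.37 for the former and by −0.34 for the latter.

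The genes of the PEA3-type ETS factors ETV4 and ETV5, which are close paralogs, also went opposite ways, by small amounts. Changes at least as large were found in 69.9% of tested genes for ETV4 and 53.9% for ETV5. ETV4, on chromosome 17 from 41605211 to 41623762, was the most abundant of the 10 genes per exon length, with 47.2 to 48.3 RPKM in control. Its normalized reads were 3716, 3676 and 3757 in control, against 4004, 3946 and 4048 for PELP1-KD. The groups lay apart although the rise was only to 107.6% of control (log2 fold change 0.11, 95% interval 0.03 to 0.18, adjusted p = 0.0217 from edgeR). The call was lost without control replicate 1 (adjusted p = 0.0662) or control replicate 2 (adjusted p = 0.0887). ETV5, on chromosome 3 from 185764106 to 185826901, had 1040.5, 1034 and 1028 normalized reads in control and 946, 908 and 893 in the others. It fell to 88.5% of control (log2 fold change −0.18, 95% interval −0.28 to −0.07, adjusted p = 0.00755 from edgeR), and the call held with each library left out in turn, between −0.20 and −0.16. The ratio of ETV4 to ETV5 RPKM went from 5.93, 5.90 and 6.07 in control to 7.03, 7.22 and 7.53.

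**Figure D3:**
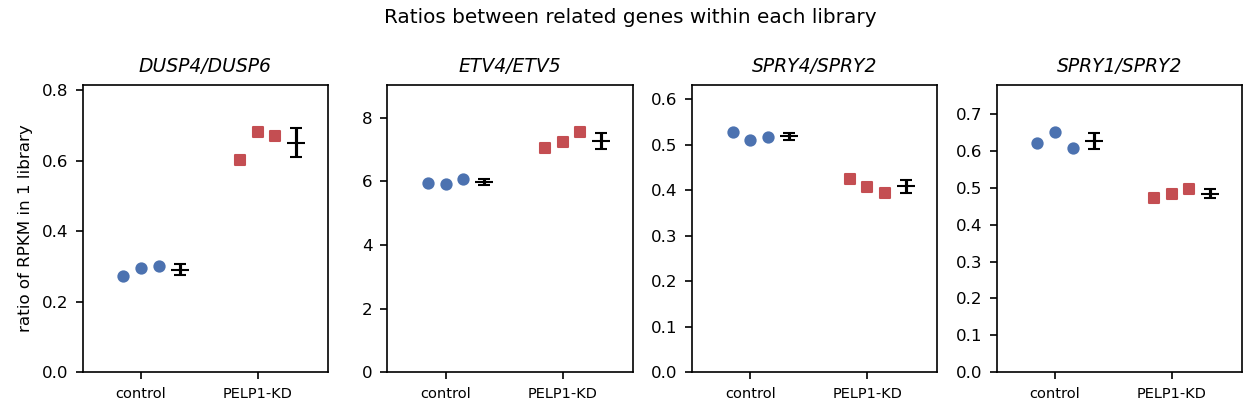
Ratio of RPKM between related genes within each library (vertical axes, from 0), for the 3 control libraries (blue circles) and the 3 libraries labelled PELP1-KD (red squares), with mean and SD in black. In each of the 4 panels the groups are apart, and the ratio of DUSP4 to DUSP6 changes most, from a mean of 0.291 to 0.651.

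These 4 ratios were chosen after the values had been seen, from genes whose groups already lay apart in opposite directions. Their separation was thus fixed in advance and adds nothing to the results of the single genes. For each, the two-sided exact permutation test over libraries gave p = 0.1, also after adjustment over the 4 ratios, which is the smallest p that 3 against 3 libraries allow.

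PHLDA1 encodes a pleckstrin-homology-like protein whose mRNA is induced by growth factors, and its gene lies on chromosome 12 from 76419227 to 76425556. It had 4785, 4624 and 4727 normalized reads in control, against 4356, 4556 and 4549.5 for PELP1-KD. The groups did not overlap, but the difference was small, with a log2 fold change of −0.07 (95% interval −0.15 to 0.01, adjusted p = 0.12 from edgeR). PHLDA1 was called lower with the replicate number as a block (adjusted p = 0.0298) and without replicate 3 of both groups (−0.08, adjusted p = 0.0353), where SPRY4 was not (−0.11, adjusted p = 0.137). PHLDA1 was the only one of the 10 genes whose call changed with the block.

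Per exon length, the control libraries placed the 10 genes in the order ETV4, PHLDA1, DUSP6, DUSP5, SPRY2, ETV5, SPRY1, SPRY4, DUSP4 and SPRED1. Their levels spanned 47.7 to 2.19 RPKM, and the only neighbours whose control values overlapped were DUSP5 (10.6 to 11.8 RPKM) and SPRY2 (10.1 to 10.8 RPKM). In the libraries labelled PELP1-KD, DUSP6 dropped below DUSP5 and SPRY2, to 8.01 to 8.60 RPKM. DUSP4, at 5.18 to 5.44 RPKM, moved above SPRY4, at 4.68 to 5.01 RPKM. Again only DUSP5 and SPRY2 overlapped as neighbours in that order. The summed normalized reads of the 10 genes overlapped between the groups, at 14754 to 15162 in control and 14632 to 14881 for PELP1-KD. Without ETV4 and PHLDA1, the genes with the most reads, the sums did not overlap, at 6455 to 6677 in control and 6272 to 6378 for PELP1-KD. This leaves out ETV4, a gene called higher, and 58.8% of single tested genes did not overlap either. The separation is therefore not read as a fall of the group.

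Replicates were close for all of these genes. The coefficient of variation within a group ran from 0.587% for ETV5 in control to 7.24% for DUSP5 in the libraries labelled PELP1-KD. A member had between 332 and 5220 reads in a library, and none shared exon bases with another gene on its strand. Of the 60 values, 7 were not whole, with a largest fraction of 0.83 of a read.

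**Figure D4:**
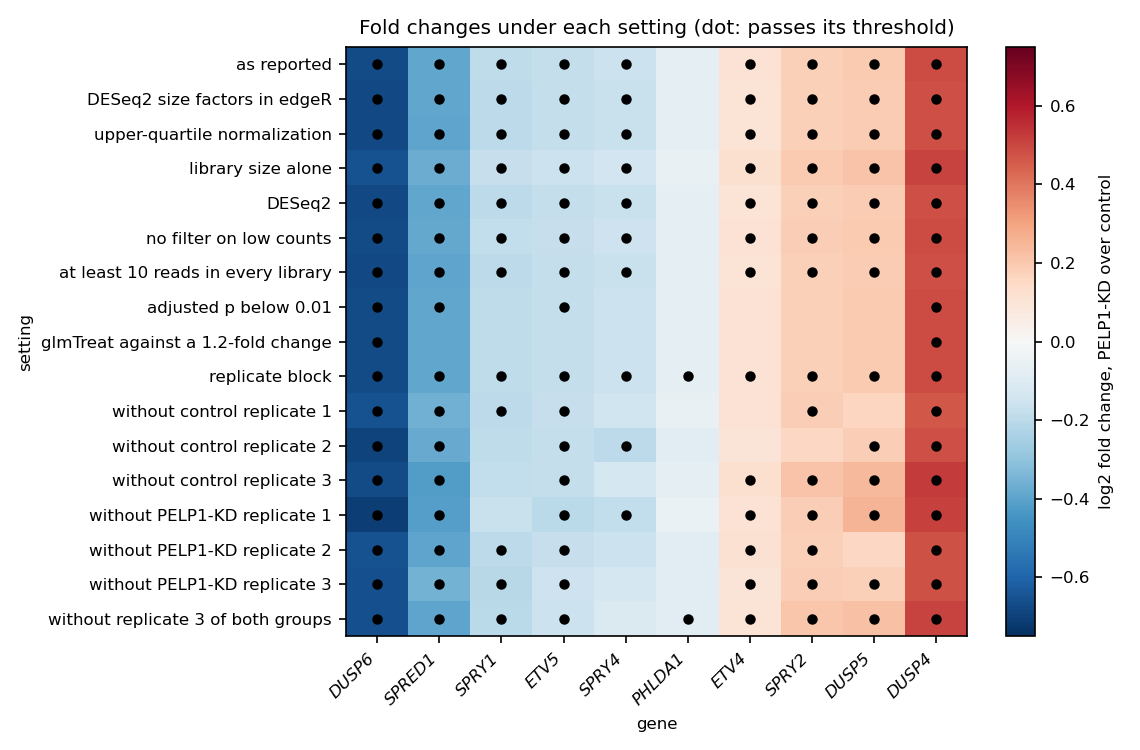
Log2 fold change (colour) of each gene (columns) under the reported setting and 16 alternatives (rows), with a dot where the gene passes the threshold of that setting. DUSP6 and DUSP4 carry a dot in every row, no column changes colour from red to blue, and of the 9 called genes SPRY4 lacks dots most often.

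Of the 9 genes called, 4 kept the call with each single library left out (DUSP4, DUSP6, SPRED1 and ETV5), and 5 lost it in at least 1 such fit. DUSP4 and DUSP6 were also called under all 16 alternatives, including a test against a 1.2-fold change.

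Promoter sequence was examined for the genes with an entry in the RefSeq table of windows from 250 bases before to 50 bases after a transcription start (GRCh38.p14), which were 6 of the 10 (DUSP6, SPRY1, SPRY2, SPRY4, SPRED1 and PHLDA1). There was no entry for DUSP4, DUSP5, ETV4 and ETV5. The 150 bases before the start are shown for DUSP6 and SPRED1, which fell most, and for the paralogs SPRY1 and SPRY2, which went opposite ways. They lie at chr12:89352502-89352651 (minus strand), chr15:38252686-38252835 (plus strand), chr4:123396645-123396794 (plus strand, the first of 2 starts) and chr13:80341127-80341276 (minus strand, the most upstream of 3 starts). Capitals mark a match to the CIC motif, and each sequence reads 5′ to 3′.
DUSP6: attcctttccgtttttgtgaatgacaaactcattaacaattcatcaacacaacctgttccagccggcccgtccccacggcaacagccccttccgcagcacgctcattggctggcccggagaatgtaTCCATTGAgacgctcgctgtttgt
SPRED1: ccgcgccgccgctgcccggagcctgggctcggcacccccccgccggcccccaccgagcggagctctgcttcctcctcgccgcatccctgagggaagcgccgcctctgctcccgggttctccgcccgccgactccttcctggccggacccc
SPRY1: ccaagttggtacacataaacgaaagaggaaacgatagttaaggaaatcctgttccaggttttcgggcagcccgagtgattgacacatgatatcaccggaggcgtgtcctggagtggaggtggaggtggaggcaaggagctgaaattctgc
SPRY2: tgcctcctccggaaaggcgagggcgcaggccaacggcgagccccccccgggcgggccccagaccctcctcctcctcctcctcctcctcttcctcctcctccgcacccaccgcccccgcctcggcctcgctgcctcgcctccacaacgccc

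Capicua (CIC) is a repressor of ERK target genes that is relieved when ERK is active. Its motif, searched on both strands as TGAATGAA, TGAATGGA, TCAATGAA or TCAATGGA, matched the DUSP6 window at 24 to 17 bases before the start and again at positions 2 to 9 of the transcript. Of all 35116 windows of this length, 3.77% hold such a match, and the windows of the other 5 genes did not. An ETS motif (CCGGAAG) was matched only in the window of the second SPRY1 start, 67 to 61 bases before it, and occurs in 10.3% of all windows. Motifs of AP-1 (TGAGTCA, 4.95% of windows), CRE (TGACGTCA, 1.85%) and EGR (GCGTGGGCG, 0.795%) were searched in the same way and not matched in these windows. The CIC and ETS letters do not overlap each other. A match is a description of the sequence, and binding was not measured here.

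The rest of the pathway was read from lists of genes chosen by role. Over all 14537 tested genes, 26.8% were called higher and 26.8% lower, and each count below stands beside those shares. Among relatives of the 10 genes in the same families, 9 of 13 were tested, of which 6 were lower and 0 higher, with a median log2 fold change of −0.26. By edgeR at an unadjusted p below 0.05, and by DESeq2, the count of higher relatives was also 0. DUSP8, a phosphatase of stress-activated MAP kinases, fell most (−0.92, adjusted p = 3.64e-11), followed by PHLDA2 (−0.82, adjusted p = 1.73e-06) and the third PEA3 factor, ETV1 (−0.68, adjusted p = 3.13e-08). The other 4 relatives (DUSP2, SPRY3, SPRED3 and PHLDA3) had at most 2 reads in a library. SPRY3 is annotated on 2 sequences, and the effect on its counts was not tested.

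Upstream of the feedback genes, 4 of 11 receptor genes were higher and 3 lower, beside 26.8% of all tested genes each way. Their median log2 fold change was 0.06. The EGF receptor gene EGFR (0.54, adjusted p = 7.97e-11), the insulin receptor gene INSR (0.50, adjusted p = 5.69e-10) and ERBB2 (0.36, adjusted p = 1.92e-07) rose, and the FGF receptor genes FGFR1 (−0.37, adjusted p = 7.04e-06) and FGFR3 (−0.27, adjusted p = 5.01e-06) fell, all from edgeR. FGFR2 fell to 10.7% of control, from 666 ± 21.4 to 71.0 ± 9.30 normalized reads (SD, n = 3 each, log2 fold change −3.24, adjusted p = 5.72e-16 from edgeR). Of 20 genes of the cascade, from adaptors to ERK and on to the RSK kinases that ERK activates, 6 were higher and 2 lower, with a median of −0.02. RSK genes, which lie downstream of ERK, were among the higher ones. SOS1, the RAS exchange factor, rose to 278% of control (log2 fold change 1.47, adjusted p = 1.22e-15). The scaffold gene KSR1 (0.83, adjusted p = 1.54e-08) and BRAF (0.28, adjusted p = 0.00073) rose, and the adaptor gene SHC1 fell (−0.44, adjusted p = 4.88e-09). MAPK3, which encodes the kinase ERK1, fell by 0.19 on the log2 scale (adjusted p = 0.00507 from edgeR). With the replicate block, 8 cascade genes were called higher and 7 lower, and 60.7% of all tested genes were called.

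Among 14 other brakes and repressors, 3 were higher and 4 lower, with a median of −0.04, again beside 26.8% of all tested genes each way. CIC fell to a log2 fold change of −0.19 (adjusted p = 0.00188) and the ETS repressor gene ERF to −0.17 (adjusted p = 0.000708), whereas the CIC partners ATXN1L (0.28, adjusted p = 4.71e-06) and ATXN1 (0.21, adjusted p = 0.0158) rose. ATXN1 was not called without control replicate 1 (adjusted p = 0.0937) or PELP1-KD replicate 2 (adjusted p = 0.0736). DAB2IP, a RAS GTPase-activating protein gene, fell (−0.60, adjusted p = 4.49e-09), and LZTR1, whose protein promotes RAS degradation, rose (0.23, adjusted p = 0.000185). Of 10 other ERK output genes, 8 were tested, of which 5 were lower and 3 higher, with a median of −0.26. The immediate early gene EGR1 fell to 18.7% of control (log2 fold change −2.42, adjusted p = 5.12e-15), and IER2 (−0.34, adjusted p = 3.95e-06) and MYC (−0.44, adjusted p = 8.17e-08) also fell. CCND1 (0.15, adjusted p = 0.000326), FOSL1 (0.34, adjusted p = 0.032) and PLAUR (0.35, adjusted p = 0.0347) rose, but DESeq2 called neither FOSL1 (adjusted p = 0.0928) nor PLAUR (adjusted p = 0.0975). FOSL1 also missed the threshold without control replicate 1, control replicate 2, PELP1-KD replicate 2 or PELP1-KD replicate 3 (adjusted p from 0.0738 to 0.12), and PLAUR without control replicate 2, PELP1-KD replicate 2 or PELP1-KD replicate 3 (adjusted p from 0.0705 to 0.134). The remaining 2, IER3 and EPHA4, did not pass the count filter. IER3 is annotated on 6 sequences, so its reads may be lost or shared between them, and the effect on its counts was not tested. IER3 had 9.17, 9.58 and 15.3 normalized reads in control and 2.05, 2.33 and 4.99 for PELP1-KD, without overlap. Without the filter it was called lower at these few reads (log2 fold change −1.79, adjusted p = 0.00945 from edgeR). In the 3 fits that left out a PELP1-KD library, IER3 passed the filter only through its control libraries, where its reads were higher. Its lower calls in those fits were thus favoured in advance and add no support. EPHA4 had 0 reads in each library, which allows up to 3 reads.

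**Figure D5:**
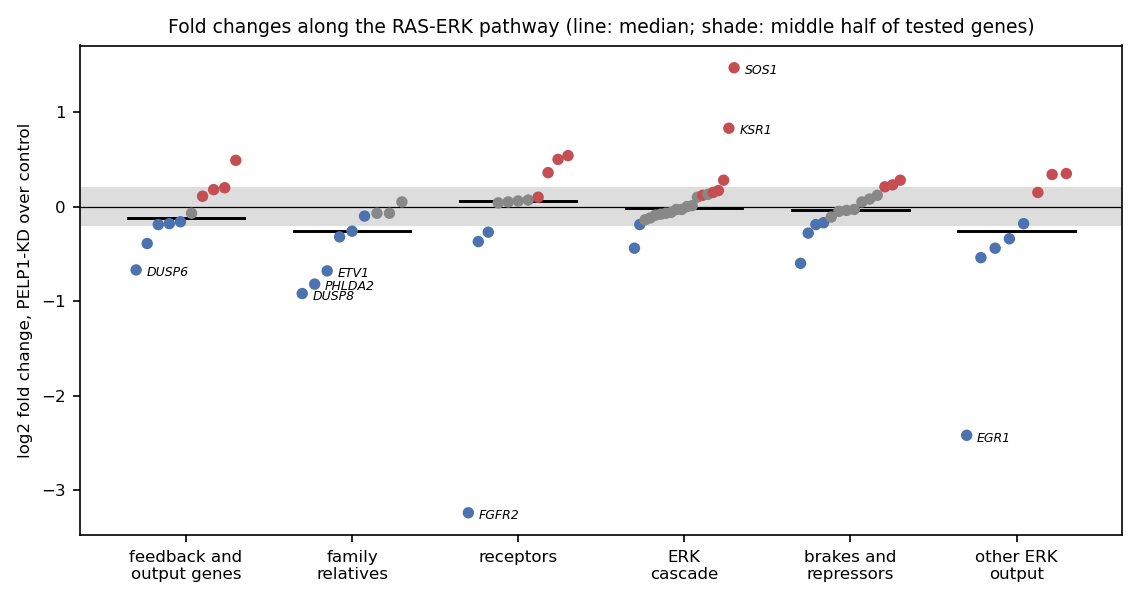
Log2 fold changes, PELP1-KD over control (vertical axis), of the tested genes in each list, with called genes in red (higher) or blue (lower), other genes in grey, each list's median as a black line and the interquartile range of all tested genes shaded. FGFR2, EGR1 and SOS1 lie beyond a 2-fold change, and the 10 feedback and output genes lie within it on both sides of 0.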

How the data were processed

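Gene counts from RNA-seq of 6 Hep3B libraries, 3 control and 3 PELP1-KD by their treatment labels, were used. The members and the pathway lists were chosen with earlier results of these data known. The study's methods name TopHat2, HTSeq and hg19. The processing notes of the submitters name HISAT2 and featureCounts, and each table's header gives featureCounts 1.5.0-p1, strand-specific counting over exons, mapping quality of at least 2, and sharing multi-mapped reads as fractions. The labels also conflict on mRNA selection or ribosomal RNA removal. Values as the authors deposited them were therefore estimated counts, not normalized. They were rounded to whole numbers.

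Between 26758180 and 34456393 reads fell on genes, and 14537 genes passed filterByExpr. The groups were compared with edgeR 4.0.16 (R 4.3.3, TMM, robust glmQLFit and glmQLFTest), with Benjamini-Hochberg adjustment over all tested genes and a threshold of 0.05. Standard errors came from the fold change and its F statistic. RPKM were computed from normalized reads and the exon length of the tables. Alternatives were other scalings, DESeq2 1.42.0, other filters and thresholds, a replicate block, and leaving out each library. The reported fits were unpaired. Deviations of same-numbered control and PELP1-KD libraries from their group means correlated at 0.336, 0.247 and 0.666 over 6370 genes. Since each was above 0.1, the replicate number was used as a block, in an alternative only. The support for pairing rests on replicate 3. Control 2 with PELP1-KD 1 (0.418) and control 1 with PELP1-KD 2 (0.244) correlated as well as the same-numbered libraries. Chi-square per degree of freedom between replicates was 1.93 to 7.05, so no library was a copy. On simulated counts for this comparison, 88 of 100 genes changed by a log2 fold change of 0.5 and 98 of 100 changed by 1 were recovered, with 13 false calls among 14512 genes. The simulation used a single dispersion, far fewer changed genes than were called here, and no change below 0.5. It therefore does not bear on the smaller changes of the members. Named were the 10 members, PELP1, CIC and MAPK3, each list's called genes at least 2-fold changed, and up to 3 called genes per list and direction with the smallest p. SPRED2, IER3, CD68 and the other cell type markers were named after their values had been seen, and 1 gene that the rule names is not reported here.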

Additional observations from a re-analysis of the deposited data

How the results depend on the processing

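Each of the 10 genes kept its direction under all 16 alternatives. At an adjusted p below 0.01, 1 gene was called higher and 3 lower, and against a 1.2-fold change 1 was called higher and 1 lower. In that test 3066 of all genes were called, with 3 lower relatives, 2 higher and 1 lower cascade genes, 0 higher and 1 lower brakes, and 0 higher and 2 lower other output genes. Other output genes called higher numbered 1 with DESeq2, at an adjusted p below 0.01, and without replicate 3 of both groups, an alternative chosen after the data had been seen, where 5 cascade genes were lower. With the replicate block as a pairing term, 8828 of all genes were called, beside 7788 in the reported, unpaired fit. In that setting 8 cascade genes were called higher and 7 lower, and 6 of the 10 feedback genes lower and 4 higher. With each library left out in turn, 2 to 4 members were called higher and 3 to 4 lower, and 1 to 3 other output genes higher. Scaling by library size alone moved the median of all genes to 0.021. The cause of these differences was not tested. The 5 members that lost a call with a library left out had log2 fold changes between −0.19 and 0.20.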
